A study of Mus musculus with 9 samples.

Results

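The 9 genes described here encode the carriers that move bile components across the membranes of the hepatocyte: Slc10a1, Abcb11, Abcb4, Abcb1a, Abcc2, Abcc3, Abcc4, Abcg2 and Atp8b1. They were chosen by name, with earlier results of these data known. All 9 were found among the 23337 genes of the count table and passed the filter on low counts. Levels of mRNA come from stranded, poly(A)-selected RNA sequencing of livers from C57BL/6 mice that were 6 to 8 weeks old when they went on a high-fat diet, which all groups received for 16 weeks. The libraries labelled KO are, by their labels, from 3 mice without protease-activated receptor 2 (PAR2, gene F2rl1) in the whole body. The reads of F2rl1, which were more numerous there than in WT, did not bear this label out. The dHep libraries came from 3 mice with the genotype PAR2dHep, a knockout of PAR2 in hepatocytes. The WT libraries came from 3 floxed mice, genotype PAR2fl/fl. There was no group on normal chow, and the Cre line that deletes PAR2 in hepatocytes and the allele of the whole-body knockout are not given in the sources used here. Pooling of mice is not mentioned by the labels, and p-values measure the spread between these livers.

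Hepatocytes take bile acids up from portal blood across the sinusoidal (basolateral) membrane and secrete them, with phospholipid, cholesterol and conjugated waste products, across the canalicular (apical) membrane into bile. NTCP, encoded by Slc10a1, is the sodium-dependent uptake carrier, and the bile salt export pump BSEP, encoded by Abcb11, drives canalicular secretion. MDR2 (Abcb4) flips phosphatidylcholine into bile, MRP2 (Abcc2) exports conjugated bilirubin and glutathione conjugates, and BCRP (Abcg2) and P-glycoprotein (Abcb1a) export drugs and other xenobiotics. The flippase FIC1 (Atp8b1) keeps the canalicular membrane asymmetric. MRP3 (Abcc3) and MRP4 (Abcc4) sit in the basolateral membrane and return conjugates and bile acids to the blood, a route that is known to open when bile flow is blocked.

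The reads of the targeted gene did not bear out 1 of the labels. F2rl1 had 71, 103 and 76 reads in the libraries labelled KO, 2, 8 and 0 reads in dHep and 17, 27 and 28 reads in WT. It was lower in dHep than in WT (log2 fold change -2.73 ± 0.66 SE, edgeR adjusted p = 0.0164) and higher in the libraries labelled KO than in WT (2.22 ± 0.51, edgeR adjusted p = 0.00735). Reads were counted over the whole gene, so reads outside a deleted part check nothing. Why the libraries labelled KO had more reads of F2rl1 than WT was not tested. Every direction given below for these libraries is that of the libraries labelled KO. Depth ran from 18683660 to 30509242 reads assigned to genes per library. Hepatocyte genes had the highest summed level of the marker lists in each library: 8 markers added up to 94385 to 107088 CPM (reads of a gene per 1000000 reads, with TMM-scaled totals) in KO, 97686 to 142349 CPM in dHep and 91100.4 to 96052 CPM in WT. Of the other tissues looked for, KO replicate 1 carried enterocyte transcripts (10 markers, 609 CPM, against 193 to 346 CPM in the other libraries). Fabp2 and Slc10a2 made up most of the sum in the other libraries. Sis and Alpi had 76.1 and 100 CPM in KO replicate 1 and at most 0.0452 and 0.201 CPM in any other library. Pancreatic transcripts stood at 1670 CPM in dHep replicate 2 and 441 CPM in WT replicate 1, against 12.5 to 84.7 CPM elsewhere, where most came from Cela1. Muscle transcripts stood at 644 CPM in dHep replicate 2, against 2.15 to 57.5 CPM. For the 9 carriers, calls that end without KO replicate 1, dHep replicate 2 or WT replicate 1 are given with and without them. So are fold changes that move by over 1.5 times. The related lists, the markers, Abcb1b and F2rl1 were not refitted without them.

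Slc10a1 mRNA was about 2-fold higher in the libraries labelled KO and also in dHep livers than in WT livers, and it was the only carrier of the 9 that rose in either in the edgeR fit. In dHep livers 5 carriers fell, namely Abcb4, Abcb1a, Abcc2, Abcc3 and Abcc4, so that 6 of 9 passed the test against WT (1 higher and 5 lower at an edgeR adjusted p under 0.05), where 24.3% of all genes tested passed, 12.4% higher and 11.9% lower. In the libraries labelled KO 4 of 9 passed, Slc10a1 higher and Abcb1a, Abcc2 and Abcc4 lower, where 43.0% of all genes passed, 20.9% higher and 22.1% lower. A share of 4 in 9 is near that background. Between the libraries labelled KO and dHep 2 of 9 passed, Abcb4 higher and Abcb1a lower in KO, where 9.62% of all genes passed, 4.23% higher and 5.39% lower. The values of both groups did not overlap for 6 of 9 carriers between dHep and WT (43.4% of all genes tested), for 7 of 9 between KO and WT (66.2%) and for 4 of 9 between KO and dHep (26.5%). The median log2 fold change of the 9 carriers was -0.58 in dHep against WT (0.02 over all genes), -0.27 in KO against WT (-0.01) and 0.28 in KO against dHep (-0.02). Both comparisons were set against the same 3 WT livers. In all, 1624 genes were higher and 1568 lower in dHep than in WT, and 2751 higher and 2902 lower in KO than in WT. With library totals in place of TMM factors these splits became 778 against 2029 and 1526 against 3763, and the median of all genes moved to -0.14 and -0.20, while 6 of 9 carriers passed in each comparison, 1 higher and 5 lower.

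**Figure D1:**
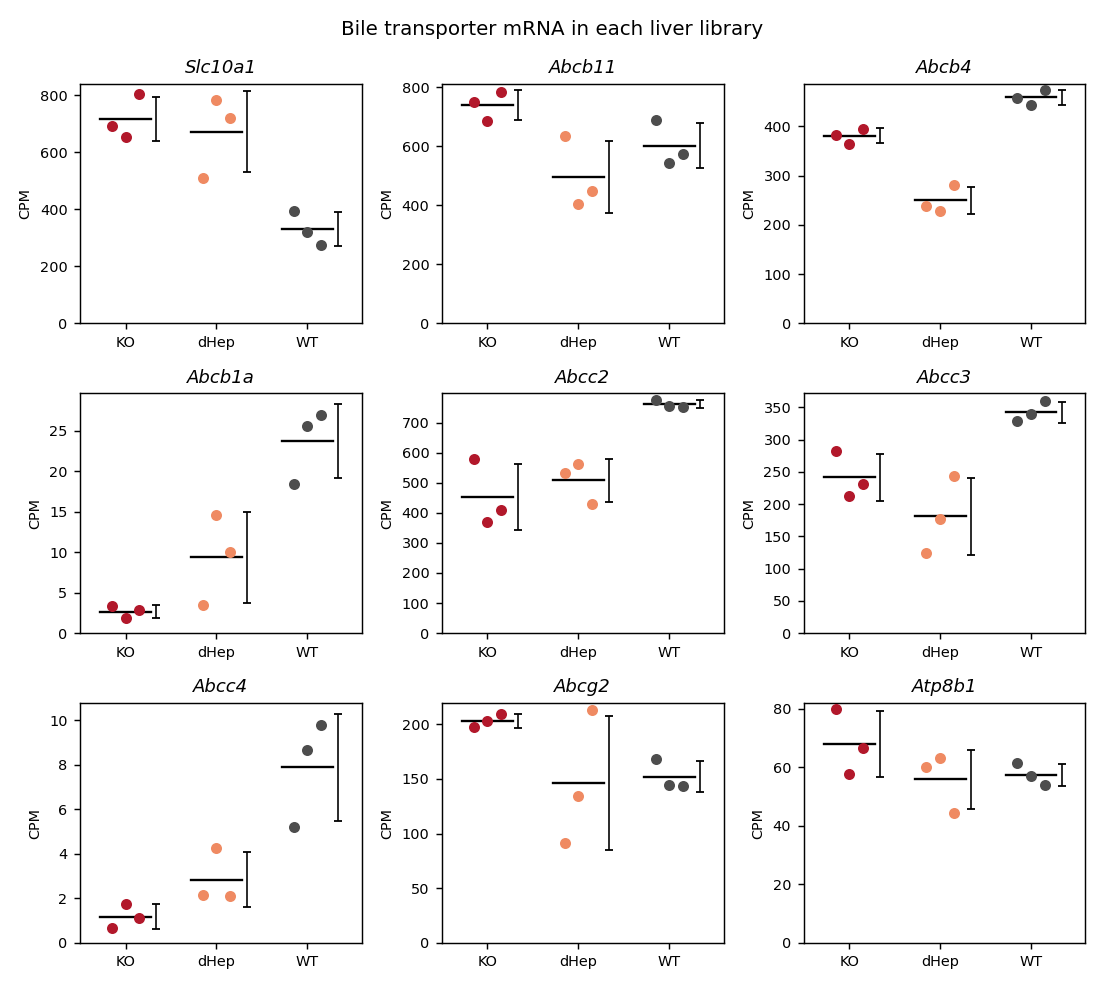
Level of each of the 9 carriers in every liver (CPM, linear axes from 0; 1 point per library, a horizontal line at the group mean and a vertical bar of 1 SD to each side), with the libraries labelled KO left of dHep and WT. All 6 KO and dHep values of Slc10a1 lie above all 3 WT values, and all 6 KO and dHep values of Abcb1a and of Abcc4 lie below those of WT.

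Promoters of 7 of the 9 genes were in the RefSeq table of GRCm38.p6, 300 bases each from 250 before to 50 after the gene start. Abcc3 and Atp8b1 are named only. The 4 shown belong to the carrier that rose and to the 3 genes whose promoters held the first motif named below. They are written 5′ to 3′ on the gene's strand. These 3 genes also fell in both comparisons with WT, but the choice itself fixed that each promoter shown for them holds the motif. The promoter of Abcb4, which fell in dHep, did not hold it and is not shown. Capitals mark matches, on either strand, to TGACNNNGC, the core of the antioxidant response element bound by NRF2 with small MAF proteins, and to AGGTCA, the half-site of many nuclear receptors. Slc10a1 lies at chr12:80968030-80968329 on the minus strand, Abcc2 at chr19:43782058-43782357 on the plus strand, Abcc4 at chr14:118706170-118706469 on the minus strand and Abcb1a at chr5:8566841-8567140 on the plus strand. The RefSeq start of Abcb1a lies 93001 bases upstream of the first exon in the count table, so for this gene the promoter shown may not be the one that gave the counted reads.
Slc10a1: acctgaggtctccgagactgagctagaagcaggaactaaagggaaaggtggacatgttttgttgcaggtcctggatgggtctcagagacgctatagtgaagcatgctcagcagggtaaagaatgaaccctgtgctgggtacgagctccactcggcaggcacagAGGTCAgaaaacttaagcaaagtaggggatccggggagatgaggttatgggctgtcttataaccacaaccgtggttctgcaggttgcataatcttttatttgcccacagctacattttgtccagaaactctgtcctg
Abcc2: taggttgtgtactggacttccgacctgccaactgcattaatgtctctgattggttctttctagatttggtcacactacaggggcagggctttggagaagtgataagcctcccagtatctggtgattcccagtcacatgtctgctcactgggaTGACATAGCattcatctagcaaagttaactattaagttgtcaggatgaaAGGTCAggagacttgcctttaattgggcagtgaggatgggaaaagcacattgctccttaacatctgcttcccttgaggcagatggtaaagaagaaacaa
Abcc4: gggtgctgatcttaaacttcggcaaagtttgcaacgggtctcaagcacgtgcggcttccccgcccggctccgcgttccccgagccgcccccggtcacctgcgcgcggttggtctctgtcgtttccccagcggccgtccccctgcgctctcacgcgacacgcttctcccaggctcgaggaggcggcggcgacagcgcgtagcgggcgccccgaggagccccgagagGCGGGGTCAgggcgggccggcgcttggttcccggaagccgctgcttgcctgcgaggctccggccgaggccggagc
Abcb1a: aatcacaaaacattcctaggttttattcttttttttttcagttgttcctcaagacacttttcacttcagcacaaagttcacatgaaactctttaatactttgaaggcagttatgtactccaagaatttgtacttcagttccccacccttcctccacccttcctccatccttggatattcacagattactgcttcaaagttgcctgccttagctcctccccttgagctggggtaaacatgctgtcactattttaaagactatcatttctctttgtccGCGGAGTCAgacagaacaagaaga
TGACNNNGC occurred in 3 of the 7 promoters, those of Abcc2, Abcc4 and Abcb1a, and in 12.4% of all 32851 promoters of the same length. The matches began 98 and 25 bases before the start of Abcc2 and Abcc4 and 27 bases after that of Abcb1a. AGGTCA occurred in 3 of 7, those of Slc10a1, Abcc2 and Abcb11, and in 16.3% of all promoters, beginning 87 bases before the start in Slc10a1 and 49 bases before it in Abcc2. Of the other motifs searched, TTGCNNAA (C/EBP) occurred in Slc10a1 and Abcc4 and in 10.8% of all promoters, TTCNNNGAA (STAT5) in Abcc4 and in 8.3%, and TGTTTAC (FOXA) and CAAAGTTCA (HNF4A) in Abcb1a and in 3.65% and 0.39%. GCGTG (AHR) occurred in Abcb11, Abcb4 and Abcc4 and in 32.4% of all promoters. GGGCGG (SP1) occurred in Abcb4, Abcg2 and Abcc4 and in 35.7%, and TATAAA in Abcg2 and in 13.6%. A match is a description of these letters and shows no binding.

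Of the carriers at the blood side, Slc10a1 (chromosome 12, 80953185 to 80968079, minus strand, mm10 as all positions of genes here) had 693, 654 and 804 CPM in the libraries labelled KO, 511, 783 and 719.5 CPM in dHep and 393, 321 and 274 CPM in WT. No KO or dHep liver came down to the highest WT liver, and KO and dHep overlapped. The libraries labelled KO averaged 717 ± 77.8 CPM, dHep livers 671 ± 142 CPM and WT livers 329 ± 59.8 CPM (mean ± SD over 3 livers each). The uptake carrier was 2.18-fold higher in KO than in WT (log2 1.12 ± 0.19 SE, edgeR adjusted p = 0.00183) and 2.04-fold higher in dHep than in WT (1.03 ± 0.19, edgeR adjusted p = 0.00574). Both calls held under all 19 alternatives. KO minus dHep was 0.09 on the log2 scale (95% interval -0.33 to 0.52, edgeR adjusted p = 0.777), an interval that leaves room for a difference in either direction.

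Abcc3 (chromosome 11, 94343295 to 94392976, minus strand), the basolateral pump for glucuronide conjugates, ran the other way. Its levels were 282, 212 and 231 CPM in the libraries labelled KO, 124, 177 and 243 CPM in dHep and 328, 339 and 359.8 CPM in WT. All 6 KO and dHep livers were below all 3 WT livers, and dHep varied most, with its highest liver inside the KO range. dHep livers had 1.89-fold less Abcc3 mRNA than WT livers (log2 -0.92 ± 0.22 SE, edgeR adjusted p = 0.0147). This call ended without WT replicate 2 (0.0509) or WT replicate 3 (0.0592), without dHep replicate 2 and WT replicate 1 together (0.0556), and without those and KO replicate 1 (0.0707; range over the alternatives 0.000504 to 0.0707). In KO against WT the log2 difference of -0.50 ± 0.21 missed the threshold in edgeR (adjusted p = 0.0833), and it passed with only these 2 groups in the fit (0.00512), with limma voom (0.00211), with library totals (0.00953) and without dHep replicate 1 (0.0223) or dHep replicate 3 (0.0244; range 0.00211 to 0.23). KO minus dHep was 0.42 ± 0.21 (edgeR adjusted p = 0.234), and without dHep replicate 3 it was 0.69 (0.0276; range 0.0276 to 0.635).

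Abcc4 (chromosome 14, 118482692 to 118706219, minus strand), the basolateral pump that carries bile acids together with glutathione, was the least abundant of the 9. It had 14, 39 and 19 reads in the libraries labelled KO (0.658, 1.76 and 1.10 CPM), 71, 106 and 43 reads in dHep (2.13, 4.26 and 2.11 CPM) and 138, 234 and 274 reads in WT (5.18, 8.67 and 9.77 CPM). The 3 groups did not overlap and stood in the order KO, dHep, WT from low to high. Abcc4 was 6.67-fold lower in KO than in WT (log2 -2.74 ± 0.42 SE, edgeR adjusted p = 0.00122), which held under all 19 alternatives. In dHep it was 2.78-fold lower than in WT (-1.48 ± 0.39, edgeR adjusted p = 0.0237). That call ended with limma voom (0.0506) and without dHep replicate 1 (0.0682), dHep replicate 3 (0.0692), WT replicate 2 (0.0852) or WT replicate 3 (0.0991; range 0.00169 to 0.0991). Without dHep replicate 2 and WT replicate 1 the fall was wider (-2.12, edgeR adjusted p = 0.00843), and so it was without these and KO replicate 1 (-2.07, edgeR adjusted p = 0.00368). KO minus dHep was -1.26 ± 0.42 (edgeR adjusted p = 0.0897), and it passed in DESeq2 (0.0269, range 0.0269 to 0.299). Without KO replicate 1, dHep replicate 2 and WT replicate 1 this difference was -0.55 (edgeR adjusted p = 0.299).

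Of the canalicular carriers, the bile salt export pump Abcb11 (chromosome 2, 69238282 to 69342616, minus strand) had 752, 686 and 786 CPM in the libraries labelled KO, 634, 404 and 449.5 CPM in dHep and 688, 545 and 575 CPM in WT. KO and WT overlapped by a single liver on each side, and dHep replicate 1 lay inside the WT range while the other dHep livers lay below it. Its log2 difference was -0.28 in dHep minus WT (95% interval -0.68 to 0.12, edgeR adjusted p = 0.271) and 0.30 in KO minus WT (-0.10 to 0.69, edgeR adjusted p = 0.194). Some settings passed: dHep minus WT without dHep replicate 1 (-0.50, edgeR adjusted p = 0.0271, range 0.0271 to 0.995), and KO minus WT with only these groups in the fit (0.0405) or limma voom (0.0218, range 0.0218 to 0.702). Without dHep replicate 2 and WT replicate 1, dHep minus WT was -0.046, and without KO replicate 1 as well it was -0.002. The libraries labelled KO did not overlap with dHep, where the difference was 0.58 ± 0.18 (edgeR adjusted p = 0.0694). That difference passed in DESeq2 (0.0131) and without dHep replicate 1 (0.80, edgeR adjusted p = 0.00893, range 0.00893 to 0.266).

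Abcb4 (chromosome 5, 8893721 to 8959226, plus strand) had 384, 365 and 395 CPM in the libraries labelled KO, 239, 229 and 281 CPM in dHep and 458, 444 and 474 CPM in WT. The 3 groups did not overlap, and dHep was the lowest. dHep livers had 1.84-fold less mRNA of the phosphatidylcholine flippase than WT livers (log2 -0.88 ± 0.11 SE, edgeR adjusted p = 0.001), which held under all 19 alternatives. It was 1.53-fold higher in KO than in dHep (0.61 ± 0.11, edgeR adjusted p = 0.0108). The last call ended with only these 2 groups in the fit (0.0582), without KO replicate 3 (0.0541), without dHep replicate 2 and WT replicate 1 together (0.0573) and without those and KO replicate 1 (0.105; range 3.21e-06 to 0.105). KO minus WT was -0.27 ± 0.11 (edgeR adjusted p = 0.0685). It passed with library totals (0.00612), DESeq2 (0.0483), limma voom (0.00934), only these 2 groups (0.0107) and without dHep replicate 3 (0.0213; range 0.00612 to 0.267).

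Abcc2 (chromosome 19, 43782308 to 43838218, plus strand), the canalicular pump for bilirubin conjugates, was lower in the libraries labelled KO and in dHep than in WT. It had 579, 371 and 409 CPM in the libraries labelled KO, 534, 565 and 428 CPM in dHep and 776, 757 and 754 CPM in WT. Every KO and dHep liver was below every WT liver, and the WT livers lay within a narrow band. Abcc2 was 1.68-fold lower in KO than in WT (log2 -0.75 ± 0.18 SE, edgeR adjusted p = 0.0082), a call that held under all 19 alternatives, and lower in dHep than in WT as well (-0.58 ± 0.18, edgeR adjusted p = 0.0394). The dHep call ended without KO replicate 3 (0.0593), dHep replicate 1 (0.0538), dHep replicate 3 (0.0971), WT replicate 1 (0.101), WT replicate 2 (0.106) or WT replicate 3 (0.104), and without dHep replicate 2 and WT replicate 1 together (0.077; range 0.00586 to 0.106). KO minus dHep was -0.17 (95% interval -0.56 to 0.23, edgeR adjusted p = 0.562).

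P-glycoprotein has a pair of genes in the mouse, Abcb1a and Abcb1b. Abcb1a (chromosome 5, 8660092 to 8748570, plus strand) had 71, 40 and 49 reads in the libraries labelled KO (3.33, 1.81 and 2.83 CPM), 115, 362 and 205 reads in dHep (3.45, 14.5 and 10.1 CPM) and 491, 691 and 757 reads in WT (18.4, 25.6 and 27.0 CPM). The groups did not overlap, although dHep replicate 1 lay just above the highest KO liver. This was the widest change among the 9: 8.92-fold lower in KO than in WT (log2 -3.16 ± 0.47 SE, edgeR adjusted p = 0.00102), which held under all 19 alternatives. In dHep it was 2.55-fold lower than in WT (-1.35 ± 0.42, edgeR adjusted p = 0.0455), close to the threshold. That call ended with only these 2 groups in the fit (0.0773) and without KO replicate 1 (0.0559), KO replicate 2 (0.0595), KO replicate 3 (0.0712), dHep replicate 3 (0.0904), WT replicate 1 (0.065), WT replicate 2 (0.128) or WT replicate 3 (0.138; range 0.0065 to 0.138). Without dHep replicate 2 and WT replicate 1, the livers with pancreatic transcripts, the dHep fall was wider (-1.99, edgeR adjusted p = 0.0193), as it was without these and KO replicate 1 (-1.95, edgeR adjusted p = 0.0241).

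Abcb1a was also 3.50-fold lower in KO than in dHep (log2 -1.81 ± 0.46 SE, edgeR adjusted p = 0.0406). Most alternatives ended this call: limma voom (0.159), only these 2 groups (0.0953), and leaving out KO replicate 1 (0.0658), KO replicate 2 (0.141), KO replicate 3 (0.116), dHep replicate 2 (0.105), WT replicate 1 (0.0582), WT replicate 2 (0.0701) or WT replicate 3 (0.0683). It also ended without dHep replicate 2 and WT replicate 1 together (0.132) and without those and KO replicate 1 (0.141; range 0.000455 to 0.159).

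Abcb1a, Abcb1b and Abcb4 lie next to each other on chromosome 5 on the same strand, with gaps of 49576 bases between Abcb1a and Abcb1b and 27406 bases between Abcb1b and Abcb4. Abcb1b had few reads: 34, 64 and 42 in KO (1.597, 2.89 and 2.42 CPM), 35, 30 and 14 in dHep (1.05, 1.20 and 0.687 CPM) and 32, 22 and 30 in WT (1.20, 0.815 and 1.07 CPM). It was higher in KO, where Abcb1a was lower, than in WT (log2 1.16 ± 0.32 SE, edgeR adjusted p = 0.0168) and than in dHep (1.22 ± 0.32, edgeR adjusted p = 0.0447). Its dHep minus WT difference was -0.06 (edgeR adjusted p = 0.911). Abcb1a and Abcb1b are close paralogues, and how reads that match both were split between them is uncertain.

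Abcg2 and Atp8b1 passed the test in no comparison of the edgeR fit to all 9 libraries. Abcg2 (chromosome 6, 58596672 to 58692451, plus strand) had 197, 203 and 209 CPM in the libraries labelled KO, 91.4, 135 and 213 CPM in dHep and 168, 145 and 143 CPM in WT. The dHep livers spanned the values of both other groups, and every KO liver was above every WT liver. The coefficient of variation was 3.05% in KO, 42.0% in dHep and 9.24% in WT. KO minus WT was 0.42 ± 0.24 on the log2 scale (edgeR adjusted p = 0.19). It passed with only these 2 groups in the fit (0.00301), with limma voom (0.0105) and without dHep replicate 3 (0.0359; range 0.00301 to 0.36). KO minus dHep was 0.47 ± 0.24 (edgeR adjusted p = 0.236), and 0.85 without dHep replicate 3 (0.0116; range 0.0116 to 0.508).

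Atp8b1 (chromosome 18, 64528979 to 64661000, minus strand) had 80.0, 57.6 and 66.5 CPM in the libraries labelled KO, 60.1, 63.2 and 44.3 CPM in dHep and 61.5, 56.9 and 53.9 CPM in WT. All 3 groups overlapped. KO minus WT was 0.24 ± 0.16 on the log2 scale (edgeR adjusted p = 0.228), dHep minus WT -0.04 ± 0.16 (edgeR adjusted p = 0.88) and KO minus dHep 0.28 ± 0.16 (edgeR adjusted p = 0.266). Atp8b1 passed under none of the 19 alternatives (lowest adjusted p 0.0857, in KO minus WT).

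**Figure D2:**
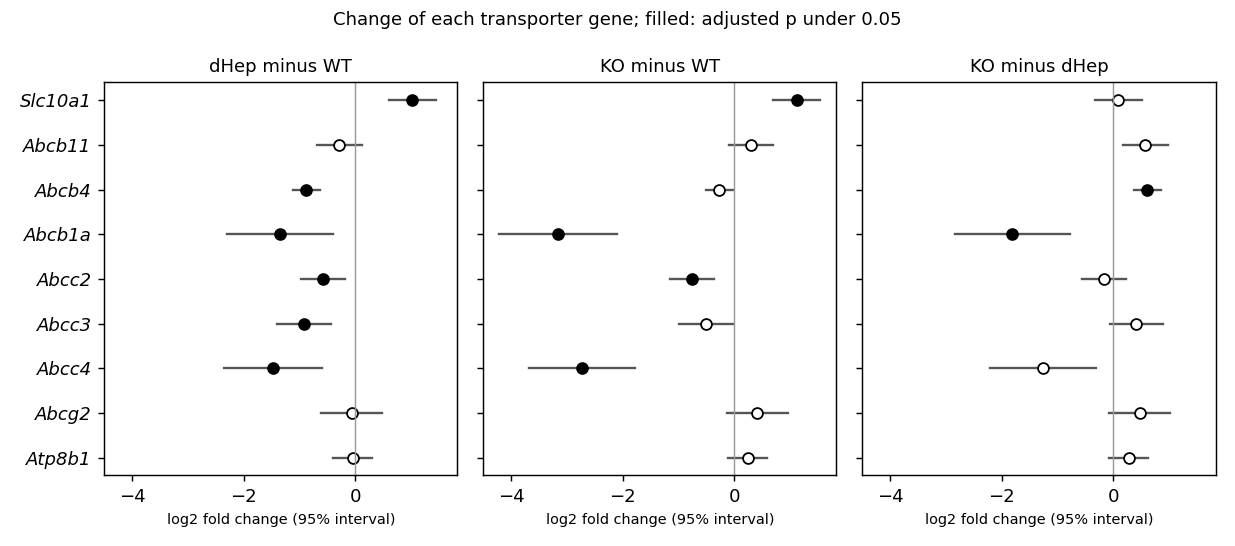
Log2 fold change of each carrier with its 95% interval in dHep minus WT, in KO minus WT and in KO against dHep, a panel each (edgeR; filled where the adjusted p is under 0.05). Slc10a1 is the only carrier called higher against WT, and Abcb1a reaches -3.16 in KO minus WT.

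Reads scaled to gene length (RPKM, reads per kilobase of gene and per 1000000 reads) allow the carriers to be ranked against each other. In the libraries labelled KO the mean order was Slc10a1 (341 RPKM), Abcb11 (151), Abcb4 (93.5), Abcc2 (84.0), Abcg2 (81.5), Abcc3 (48.3), Atp8b1 (10.6), Abcb1a (0.534) and Abcc4 (0.199). Neighbours among Abcb4, Abcc2 and Abcg2 overlapped. In dHep it was Slc10a1 (319 RPKM), Abcb11 (101), Abcc2 (94.4), Abcb4 (61.2), Abcg2 (58.7), Abcc3 (36.2), Atp8b1 (8.68), Abcb1a (1.88) and Abcc4 (0.480). The ranges of Abcb11 and Abcc2 overlapped, as did those of neighbours from Abcb4 to Abcc3 and those of Abcb1a and Abcc4. In WT it was Slc10a1 (157 RPKM), Abcc2 (141), Abcb11 (123), Abcb4 (113), Abcc3 (68.5), Abcg2 (61.0), Atp8b1 (8.92), Abcb1a (4.76) and Abcc4 (1.34). There, neighbours from Slc10a1 to Abcb4 overlapped, as did Abcc3 and Abcg2. Slc10a1 had the highest mean in every group, and the last 3 places were held by the same genes. Abcc2 came directly after Slc10a1 in WT, after Abcb11 in dHep and after Abcb4 in KO.

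**Figure D3:**
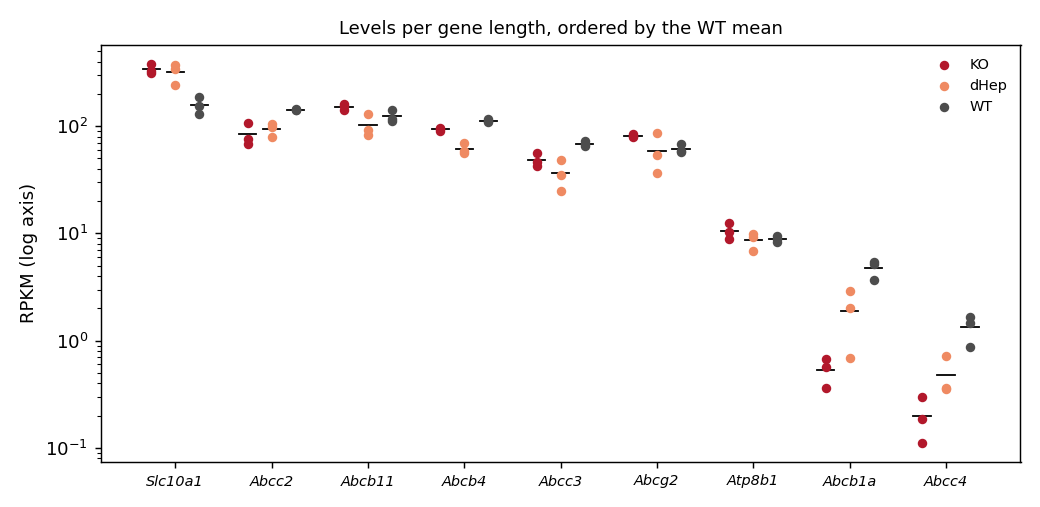
Level per gene length of the 9 carriers (RPKM, log axis) in the libraries labelled KO, dHep and WT, 1 point per library with the group means. By the means, Slc10a1 is the highest and Abcc4 the lowest in each group.

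Ratios of RPKM within a library do not depend on how libraries are scaled to each other, and 4 were computed, chosen after the values above were seen. Slc10a1 over Abcb11, uptake carrier to export pump, was 2.14, 2.22 and 2.38 in the libraries labelled KO, 1.88, 4.52 and 3.73 in dHep and 1.33, 1.37 and 1.11 in WT. Each KO and dHep liver was above each WT liver. Abcb4 over Abcb11, phospholipid flippase to export pump, was 0.613, 0.639 and 0.604 in KO, 0.452, 0.681 and 0.751 in dHep and 0.800, 0.980 and 0.992 in WT. Again no KO or dHep liver reached the WT range, and KO and dHep overlapped. Abcc2 over Abcb11 was 0.699, 0.491 and 0.473 in KO, 0.764, 1.27 and 0.865 in dHep and 1.02, 1.26 and 1.19 in WT, with KO below both other groups and dHep overlapping WT. Abcc3 over Abcc2, basolateral to canalicular pump for conjugates, was 0.525, 0.616 and 0.608 in KO, 0.250, 0.337 and 0.611 in dHep and 0.456, 0.483 and 0.514 in WT. It lay higher in each KO liver than in any WT liver, and dHep spanned the rest. The two-sided exact permutation test over 3 livers against 3 gave p = 0.1, the smallest it allows, wherever groups did not overlap (7 of 12 comparisons, Benjamini-Hochberg value 0.171), and 0.3 to 1 elsewhere. The Benjamini-Hochberg values of the others ran from 0.45 to 1.

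**Figure D4:**
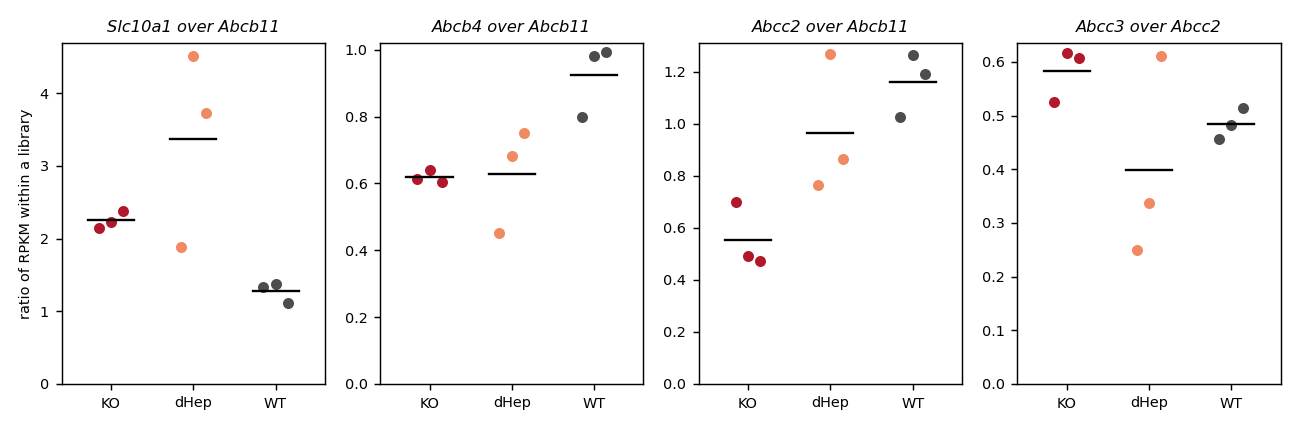
Ratios between pairs of carriers within each liver (RPKM over RPKM, no unit), in the libraries labelled KO, dHep and WT, 1 point per library with the group mean. The WT points lie lowest for Slc10a1 over Abcb11 and highest for Abcb4 over Abcb11.

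P-glycoprotein is known in endothelia as well as in hepatocytes, and genes of other liver cells changed too. Marker counts stand against the shares of all genes tested. Those were 22.1% lower and 20.9% higher in KO than in WT, and 11.9% lower and 12.4% higher in dHep. Summed levels of 10 endothelial markers were 180.1 to 249 CPM in the libraries labelled KO, 243 to 325 CPM in dHep and 348 to 385 CPM in WT. Of these 10 markers, 8 fell in KO and 4 in dHep against WT. Macrophage markers (10) summed to 112 to 210.5 CPM in KO, 263 to 487 CPM in dHep and 525 to 652 CPM in WT, with 9 lower in KO and 6 in dHep. Stellate cell markers (10) summed to 264 to 345 CPM in KO, 308 to 481 CPM in dHep and 579 to 647 CPM in WT, with 6 lower in KO and 3 in dHep. Abcb1a and Abcc4 stood in the same order of groups as these sums, and the part of these cells in their difference was not tested. In bulk tissue, fewer cells of a type and less RNA per cell cannot be told apart. Cholangiocyte markers summed to 82.8 to 134 CPM in KO, 61.7 to 70.4 CPM in dHep and 139 to 207 CPM in WT. Of the 8 that were tested, 3 were higher and 1 lower in KO and 1 lower in dHep. The hepatocyte markers went the other way, with 3 of 8 higher in KO and 5 of 8 higher in dHep than in WT, the direction of Slc10a1.

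Genes whose level followed that of a carrier were looked for by Pearson's r of log2 CPM over the 9 libraries, for the carrier with the smallest p on each side, among 13140 other genes. The points share group, depth and library, so r is a description. Closest to Slc10a1 were the hepatic lipase gene Lipc (r = 0.994), the carbonic anhydrase gene Car1 (0.993), the synaptotagmin gene Syt1 (0.989), the complement gene C8b (0.985) and the glucuronosyltransferase gene Ugt2a3 (0.984). Their mean levels were likewise higher in KO and dHep than in WT: Lipc had 192 CPM in KO, 186 CPM in dHep and 111 CPM in WT. Closest to Abcb4 were the monocarboxylate carrier gene Slc16a1 (0.983), Creg1 (0.981), the aldehyde oxidase gene Aox1 (0.981), the leucyl-tRNA synthetase gene Lars (0.980) and the apolipoprotein B gene Apob (0.977). These were lowest in dHep, as Abcb4 was: Apob had 6199 CPM in KO, 4518 CPM in dHep and 7976 CPM in WT.

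Lists of 5 related gene groups were counted beside the 9 carriers. Their counts stand against the 24.3% of all genes called in dHep minus WT and the 43.0% called in KO minus WT. Of 17 genes tested on the list of other membrane carriers, 6 were higher and 1 lower in dHep than in WT. In KO, 7 were higher and 5 lower than in WT. Slc27a5, among the 6 in dHep, is also on the list of bile acid synthesis and conjugation and is counted in both. Slco1a1, an organic anion uptake carrier of the sinusoidal membrane, had 899, 715 and 866 CPM in the libraries labelled KO, 549.8, 863 and 606 CPM in dHep and 38.1, 6.22 and 3.99 CPM in WT. Like Slc10a1 it was higher in every KO and dHep liver than in any WT liver. The anion carrier Slc22a7 was higher by 2.83 ± 0.49 in KO and 2.19 ± 0.48 in dHep in log2 fold change (edgeR adjusted p = 0.00204 and 0.0114). Abcg5, a subunit of the canalicular sterol pump, was higher by 0.58 ± 0.16 in KO and 0.86 ± 0.16 in dHep (edgeR adjusted p = 0.0159 and 0.00561). Abcc6 rose too, by 0.82 ± 0.14 in KO and 0.79 ± 0.14 in dHep (edgeR adjusted p = 0.00179 and 0.0045). The ileal bile acid carrier gene Slc10a2, which is also made by cholangiocytes and was on the enterocyte list, had 56.5, 79.8 and 94.9 CPM in KO, 19.2, 36.1 and 25.0 CPM in dHep and 32.4, 36.5 and 30.0 CPM in WT. Slc10a2 was higher by 1.23 ± 0.24 in KO (edgeR adjusted p = 0.00374), and its dHep difference was -0.30 ± 0.24 (0.387). The KO liver with enterocyte transcripts, replicate 1, had the lowest of the KO values, and which cells gave the Slc10a2 reads was not tested.

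Of 21 genes tested whose proteins place and hold carriers at the canalicular membrane, 2 were higher and 2 lower in dHep than in WT, and 2 higher and 3 lower in KO. Stk11, which encodes the polarity kinase LKB1, was higher by 0.94 ± 0.11 in KO and 0.73 ± 0.11 in dHep (log2, edgeR adjusted p = 0.000379 and 0.00236). The scaffold gene Slc9a3r1 was higher by 0.88 ± 0.21 and 1.17 ± 0.22 (0.00941 and 0.00556). The actin linker moesin, Msn, was lower by a log2 difference of -1.55 ± 0.21 and -0.75 ± 0.21 (0.000719 and 0.0276), and is abundant in endothelial and blood cells. Of 16 transcription factors that are known to act on bile carriers, 2 were higher and 1 lower in dHep, and 4 higher and 3 lower in KO. Nr1h3, the oxysterol receptor LXRA, was higher by 0.61 ± 0.12 in KO and 0.47 ± 0.12 in dHep (edgeR adjusted p = 0.00299 and 0.0177). Ppargc1a and Ppara were lower in KO (-1.11 ± 0.20 and -0.96 ± 0.20, edgeR adjusted p = 0.00256 and 0.00478), and their dHep differences were -0.13 ± 0.20 and -0.31 ± 0.20 (0.65 and 0.272). The bile acid receptor gene Nr1h4 (FXR), an activator of Abcb11, had a difference of 0.03 ± 0.21 in KO and 0.15 ± 0.21 in dHep (edgeR adjusted p = 0.916 and 0.617); it was named after its values were seen.

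NRF2 is a known activator of Abcc2, Abcc3 and Abcc4 in mouse liver, and its part in their levels here was not tested. Of 12 NRF2 targets tested, 9 were lower in KO than in WT and 8 in dHep, and the others did not pass the test. Nqo1 had 6.34, 5.70 and 6.64 CPM in the libraries labelled KO, 7.79, 6.47 and 3.97 CPM in dHep and 19.1, 20.9 and 25.2 CPM in WT. The malic enzyme gene Me1 was lower by a log2 difference of -2.97 ± 0.34 in KO and -2.34 ± 0.33 in dHep (edgeR adjusted p = 0.000379 and 0.00197). Srxn1 gave -0.84 ± 0.18 in KO and -1.63 ± 0.18 in dHep, and Gsta1 -2.47 ± 0.42 and -5.52 ± 0.52, all past the threshold. The gene for NRF2 itself, Nfe2l2, had 107, 73.1 and 69.9 CPM in KO, 67.1, 59.6 and 73.3 CPM in dHep and 98.1, 120.0 and 121 CPM in WT. It was lower in dHep (-0.76 ± 0.17, edgeR adjusted p = 0.0121) and missed the threshold in KO (-0.44 ± 0.17, edgeR adjusted p = 0.0615). Of 15 genes of bile acid synthesis and conjugation, 7 were higher and 2 lower in KO and 8 were higher in dHep. Slc27a5, also counted among the other membrane carriers, is among these 8. Cyp7b1, an enzyme of the alternative synthesis pathway, was higher by 3.77 ± 0.34 in KO and 2.24 ± 0.32 in dHep (edgeR adjusted p = 0.000171 and 0.00198). Cyp2c70, a mouse enzyme of muricholic acid formation, was higher by 1.80 ± 0.26 in KO and 1.96 ± 0.26 in dHep, the racemase gene Amacr by 1.28 ± 0.16 in KO and 0.88 ± 0.16 in dHep, and the side-chain oxidase gene Acox2 by 0.98 ± 0.16 in KO, all past the threshold. In dHep Acox2 gave -0.07 ± 0.16 (edgeR adjusted p = 0.796).

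**Figure D5:**
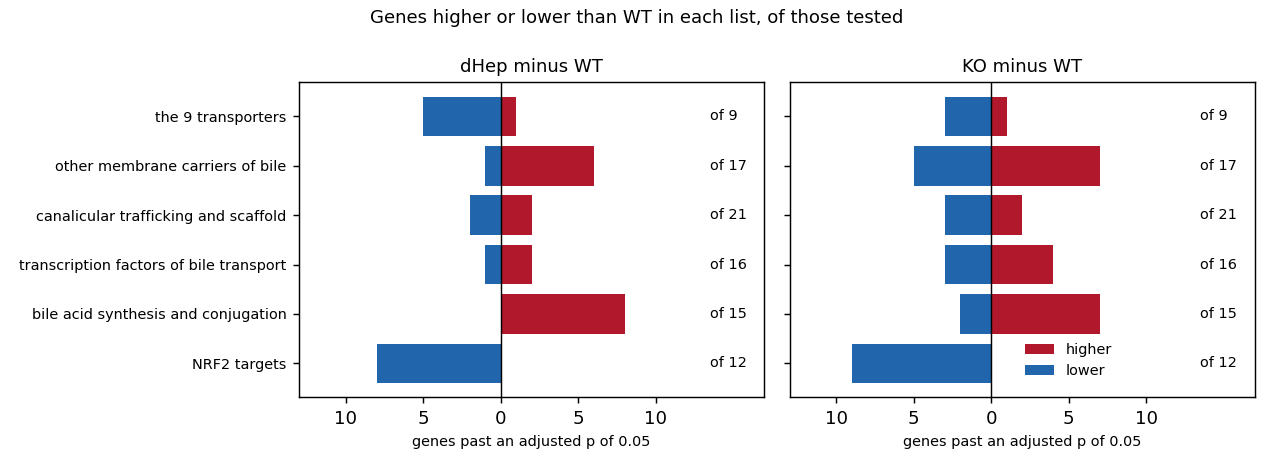
Genes called higher and lower (edgeR, adjusted p under 0.05) among the 9 carriers and the 5 related lists, in dHep minus WT and KO minus WT; the number at the right is that of genes tested. The NRF2 targets have calls on the lower side alone in both comparisons with WT, 9 in KO and 8 in dHep.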

How the data were processed

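The libraries hold poly(A) RNA of 9 livers, 3 per group. Per the submitters' processing notes, reads were checked with FastQC, aligned to mm10 with HISAT2 2.1.0 and compared with DESeq2, and those comparisons did not enter this report. The authors deposited, per the file headers, raw counts per gene from featureCounts 1.6.2 with strand setting 2, and a Length column in bases, an other kind of unit used here for RPKM only. No batch is given by the labels. Of 23337 genes, 13141 passed filterByExpr (minimum count 10, minimum total 15). Group means of all 9 libraries were fitted together with the quasi-likelihood method of edgeR 4.0.16 under R 4.3.3, using TMM factors, with p adjusted over all genes by Benjamini-Hochberg at 0.05. A log2 fold change is given with its SE (its size over the square root of F). CPM uses TMM-scaled totals.

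The 9 genes and all lists were chosen with earlier results of these data known. Named beside the 9 are up to 4 called genes per list with the smallest p against WT, and the 5 genes most like 1 higher and 1 lower member. Some genes and motifs of these lists are not reported here. Abcb1b, Slc10a2, Nfe2l2 and Nr1h4 were named after their values were seen, and Slc27a5 because it is on more than 1 list. Of 182 list symbols, 5 were matched through RefSeq synonyms and 1 was not matched.

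The alternatives were median-of-ratios size factors, library totals, DESeq2 1.42.0, limma 3.58.1 voom with quality weights, no filter, a filter of 1 CPM in at least 3 libraries, only the 2 groups compared, the replicate number as a block, each library left out, and dHep replicate 2 with WT replicate 1 left out. The data had been seen when a setting without these and KO replicate 1 was added.

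Motifs were searched on both strands of 300-base RefSeq promoters. For carriers with several, the counts use the promoter at the gene start of the count table. Those searched included the antioxidant response core TGACNNNGC, the half-site AGGTCA, the HNF4A forms CAAAGTCCA and CAAAGTTCA, the FXR inverted repeat of GGTCA with 1 base between its parts, the LXR direct repeat of AGGTCA with 4 bases between its copies, the AP-1 site TGANTCA and its longer form TGACTCAGC, the FOXA site TGTTTAC, the C/EBP site TTGCNNAA, the STAT5 site TTCNNNGAA, the AHR core GCGTG, the SP1 box GGGCGG, the TATA box given as TATAAA, and the BCL6-like site TCCCNGGGA. TGACTCAGC is a form of both TGACNNNGC and TGANTCA, and the LXR motif holds AGGTCA.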

Additional observations from a re-analysis of the deposited data

How the results depend on the processing

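Of the 12 calls of carriers, 6 held under all 19 alternatives: Slc10a1 and Abcb4 in dHep minus WT, and Slc10a1, Abcb1a, Abcc2 and Abcc4 in KO minus WT. Over the 9 carriers, 3 comparisons and 19 alternatives (513 values), 442 kept direction and side of the threshold, 40 lost a call, 23 gained one and 8 reversed, and the causes were not tested. The reversals were small. In dHep minus WT, Abcg2 (-0.43 to 0.19 with 1 library left out) became 0.19, 0.00119 and 0.022 without dHep replicate 1, dHep replicate 2 or WT replicate 1, 0.0777 without the last 2 together and 0.126 without KO replicate 1 as well, and Atp8b1 (-0.13 to 0.10) became 0.10 without dHep replicate 3 and 0.0127 without WT replicate 1. In KO minus dHep, Slc10a1 (-0.067 to 0.22) became -0.067 without dHep replicate 1.

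Carriers called in dHep minus WT numbered 2 to 6 with 1 library left out (6 with all), being 3 without dHep replicate 3 and 2 without WT replicate 2 or WT replicate 3. In KO minus WT they numbered 4 to 7 with 1 left out (4 with all), with 7 reached without dHep replicate 3, and 8 with limma voom or with only the 2 groups. In KO minus dHep they numbered 0 to 4 (2 with all), with 4 in DESeq2 and 1 in limma voom. There, edgeR called 0 with only the 2 groups, without dHep replicate 2 and WT replicate 1, without KO replicate 3, and without KO replicate 1, dHep replicate 2 and WT replicate 1, where 4, 4, 4 and 2 had an unadjusted p under 0.05. Over all genes, calls ran from 1359 to 4025 in dHep minus WT (3192 with all libraries) and from 386 to 2809 in KO minus dHep (1264 with all) when 1 library was left out. In KO minus dHep they came to 2068 in DESeq2, 802 in limma voom, 342 with only the 2 groups, 495 without dHep replicate 2 and WT replicate 1, and 550 without those and KO replicate 1.

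The replicate numbers did not pair the livers: correlations of deviations between same-numbered libraries ran from -0.332 to -0.100 in dHep and WT, 0.0138 to 0.0459 in KO and WT, and -0.135 to -0.0328 in KO and dHep, and 1 of 18 best matches had its own number. With the number as a replicate block, 2781, 5292 and 954 genes and 6, 4 and 3 carriers were called in dHep minus WT, in KO minus WT and then in KO against dHep. Under this block, in that last comparison, Abcb11 and Abcc4 passed (adjusted p = 0.0487 and 0.037) and Abcb1a did not (0.0721). Low counts limit Abcc4 and Abcb1a, which had 14 to 39 and 40 to 71 reads per library labelled KO. They also limit Abcb1b, which had 14 to 64 reads per library.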
